A study of Homo sapiens with 6 samples.

Results

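A set of 9 genes of the NOTCH pathway and the HES family was followed through DDX18 knockdown in human embryonic stem cells. They were the receptors NOTCH1, NOTCH2 and NOTCH3, the ligands DLL1 and JAG1, and the transcriptional repressors HES1, HES3, HES6 and HEY1. All 9 were found by gene symbol in the deposited table of 17929 genes, each in 1 row. They were found by symbol, and the choice of these genes was made with earlier results of these data known.

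The RNA-seq covered 6 libraries from the established human embryonic stem cell lines HES2 and H9, grown on irradiated mouse embryonic fibroblast feeders. In each line, cells received the hairpin shDDX18#1, the hairpin shDDX18#3 or the control hairpin shLuc, and were collected on day 4 after infection with the virus. That gave 4 knockdown and 2 shLuc libraries, with 1 library of each arm per line. HES2 is also the symbol of a gene, so the line is written below as HES2 cells and the gene as the gene HES2. DDX18 is a nucleolar DEAD-box RNA helicase, and the knockdown was made to see how far these cells depend on it to stay pluripotent.

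NOTCH receptors are cut from the cell surface inward after they bind a ligand on a neighbouring cell. The released intracellular domain joins the DNA-binding protein RBPJ in the nucleus and switches on target genes, among them HES1 and HEY1. HES and HEY proteins are basic helix-loop-helix repressors that hold down differentiation genes, such as the proneural factors, and HES1 also represses its own promoter. In pluripotent cells the pathway is known mainly for its part in leaving the pluripotent state towards neural and other fates.

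Libraries held 2668179 to 4271741 reads, so that 1 read was worth 0.224 to 0.408 CPM (counts per 1000000 normalised reads) and 3 reads, used as the detection floor, 0.671 to 1.23 CPM. DDX18 itself stood at 24.5% and 37.7% of the shLuc level in HES2 cells with shDDX18#1 and shDDX18#3, and at 12.6% and 31.0% in H9 cells. The labelled cell type was checked with 15 pluripotent stem cell markers, all of them in the table. Their summed level was 2247 to 3323 CPM in the knockdown libraries and 6124 to 6496 CPM in the shLuc libraries, with 0 risen and 11 fallen. The 26 fibroblast and feeder markers summed to 7644 to 53330 CPM in the knockdown libraries and 2240 to 5404 CPM in the shLuc libraries, with 16 risen and 0 fallen. H9 shDDX18#1 held the highest of these sums, and DCN and FAP were at 0 in HES2 shDDX18#3 and HES2 shLuc. These are bulk samples, in which fewer cells of a type and less RNA per cell cannot be told apart, and the part of these markers in the results below was not tested.

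HES3 fell and HES1 and NOTCH2 rose in the knockdown libraries, while HES6, NOTCH1, NOTCH3, JAG1, DLL1 and HEY1 did not pass the threshold. The test was limma on log2(CPM + 1) with the cell line as a block, and a gene was called where its Benjamini-Hochberg adjusted p over the 17768 genes tested was under 0.05. Of all genes tested, 9.60% were called as risen and 6.26% as fallen, against 2 and 1 of the 9 members. HES3, the 1 that fell, reached 1 CPM only in the shLuc libraries. It entered the test through the arm where it was high, so its call is not support. The median log2 fold change of the members was 0.50, beside -0.018 over all genes tested. Without H9 shDDX18#1, the knockdown libraries left still held summed feeder markers of 7644 to 21290 CPM. HES1 (0.93, limma adjusted p = 0.0156) and NOTCH2 (0.65, adjusted p = 0.0215) were still called in that fit. HES3 (-3.07, adjusted p = 0.00477) was called too, with the same limit. No label names separate cultures, so these p-values measure the spread between these 6 samples, which may be partly technical. Where a shLuc library is left out of knockdown minus shLuc below, the difference comes from the other line alone, against its 1 shLuc library.

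**Figure D1:**
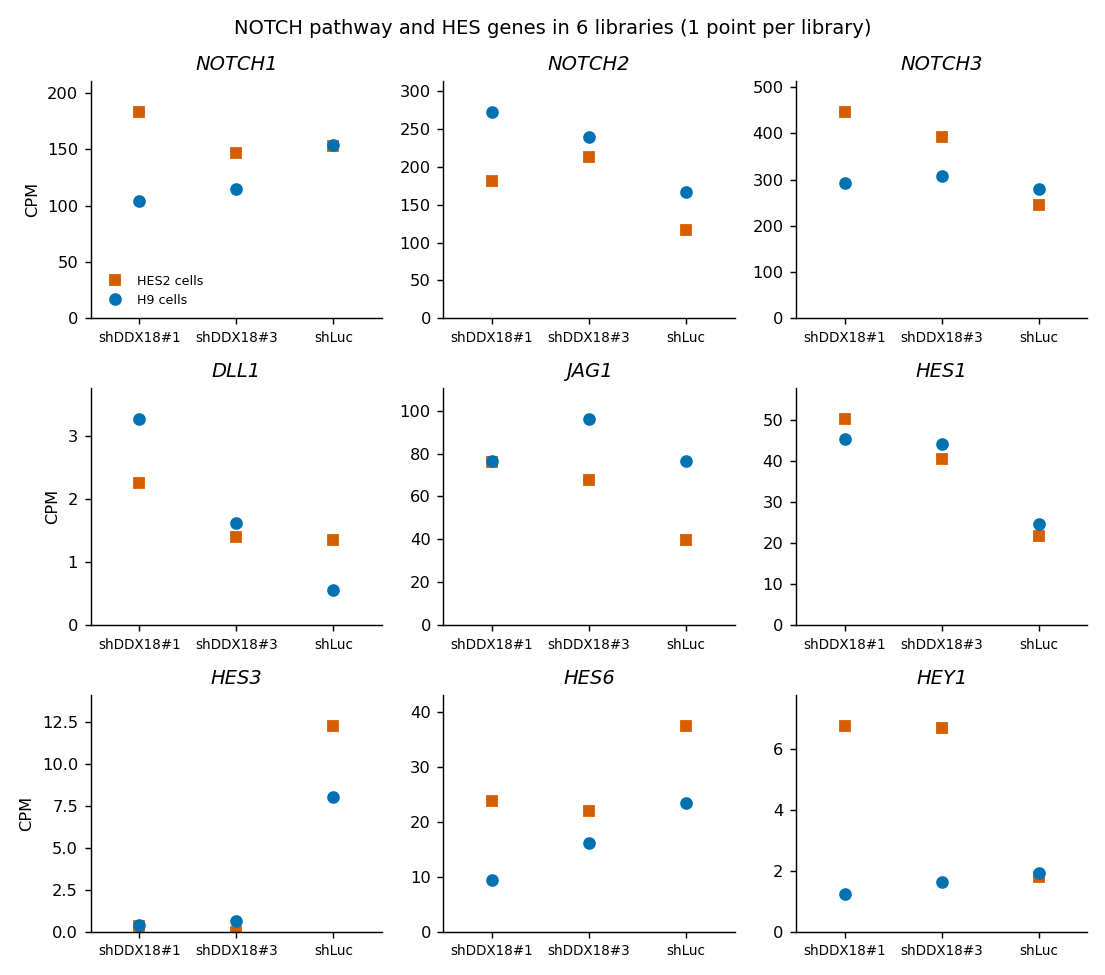
Level of each of the 9 genes (y axis, CPM, from 0, a separate scale for each gene) in each library, by hairpin (x axis), with squares for HES2 cells and circles for H9 cells. HES3 lies near 0 in all 4 knockdown libraries and at 12.3 and 8.03 CPM in shLuc, and HES1 lies at 40.4 CPM or more in the knockdown libraries and at 24.6 CPM or less in shLuc.

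HES1 is the best known direct target of NOTCH, and HES3 is a HES family repressor expressed in early neural and stem cells. Since the knockdown moved this pair in opposite directions, their promoters are shown. Each is the run of 250 bases before the gene's RefSeq start, 5′ to 3′ on the plus strand in GRCh38.p14: chr3:194135898-194136147 for HES1 and chr1:6243929-6244178 for HES3. Capitals mark matches on either strand to the RBPJ motif GTGGGAA, the class C E-box CACGNG or the N-box CACNAG. The E-box and the N-box are motifs that HES-type proteins bind, and both match the letters CACGAG.
HES1: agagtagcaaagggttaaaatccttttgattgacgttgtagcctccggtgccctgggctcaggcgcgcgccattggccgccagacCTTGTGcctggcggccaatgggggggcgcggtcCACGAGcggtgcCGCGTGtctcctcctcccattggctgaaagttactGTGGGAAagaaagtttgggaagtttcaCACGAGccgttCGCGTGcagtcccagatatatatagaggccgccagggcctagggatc
HES3: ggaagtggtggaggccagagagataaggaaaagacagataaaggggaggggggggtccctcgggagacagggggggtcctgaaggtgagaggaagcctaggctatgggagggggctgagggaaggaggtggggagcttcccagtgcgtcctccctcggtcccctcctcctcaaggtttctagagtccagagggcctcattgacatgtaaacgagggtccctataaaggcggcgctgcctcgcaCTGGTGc
The HES1 window held 1 RBPJ match, 79 to 85 bases before the start, together with 4 E-box and 3 N-box matches, of which 2 were the same CACGAG letters. The HES3 window held 1 N-box match, 2 to 7 bases before the start, and no RBPJ match. Over 35116 RefSeq promoters of the same length, 5.43% held the RBPJ motif, 26.7% the E-box and 32.0% the N-box. A promoter was matched for 7 of the 9 members, all but DLL1 and HEY1. NOTCH3 held 1 CACGAG, and the windows of NOTCH1, NOTCH2, JAG1 and HES6 held none of the 3 motifs. A match describes letters and not a bound site, and no deposited position was compared with this build because the libraries were aligned to hg19.

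HES1 was at 50.2 and 40.4 CPM in HES2 shDDX18#1 and shDDX18#3, against 21.7 CPM in HES2 shLuc. In H9 cells it was at 45.3 and 44.1 CPM under the same hairpins, against 24.6 CPM in shLuc. Every knockdown library was higher than both shLuc libraries, and the lines lay close together within each arm. The mean was 45.0 ± 4.06 CPM in the knockdown libraries and 23.2 ± 2.09 CPM in the shLuc libraries (SD, n = 4 and 2). The log2 fold change was 0.93 with an SE of 0.17 and a 95% interval of 0.53 to 1.32 (limma adjusted p = 0.0138). The call was lost without H9 shLuc (1.02, adjusted p = 0.0928), without HES2 shLuc (0.83, adjusted p = 0.141) and without HES2 shDDX18#1 (0.85, adjusted p = 0.0522), in a range of 0.00305 to 0.141 over 18 alternatives by limma and other tools.

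HES3 gave 1 and 0 reads in HES2 shDDX18#1 and shDDX18#3, against 55 reads in HES2 shLuc. H9 cells gave 1 and 2 reads with these hairpins, against 29 reads in H9 shLuc. On the CPM scale HES2 shDDX18#1 and shDDX18#3 stood at 0.322 and 0 and H9 shDDX18#1 and shDDX18#3 at 0.408 and 0.648, each under its own floor of 3 reads, against 12.3 in HES2 shLuc and 8.03 in H9 shLuc. The 0 of HES2 shDDX18#3 allows a level of up to 1.03 CPM, the upper end of its 95% exact Poisson interval. The groups were far apart in both lines: the knockdown level, summed over both hairpins, was 1.21% of shLuc in HES2 cells (95% exact interval 0.0302% to 7.05%) and 6.75% in H9 cells (1.32% to 21.8%). These intervals cover counting error only. The fitted log2 fold change was -3.05 with an SE of 0.36 (limma adjusted p = 0.0031), and it moved between -4.94 and -1.69 with the tool and the pseudocount while the call held in all 16 alternatives that tested the gene. HES3 passed the filter on low values through the shLuc libraries alone, so a tested HES3 had to differ between the arms. Without either shLuc library it no longer passed that filter and was not tested.

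HES6, an atypical family member known to oppose HES1 and to favour neuronal differentiation, was at 23.8 and 22.0 CPM in HES2 shDDX18#1 and shDDX18#3, against 37.6 CPM in HES2 shLuc. H9 cells held 9.39 and 16.2 CPM with these hairpins, against 23.5 CPM in shLuc. Each knockdown library was lower than the shLuc library of its own line, but the groups overlapped because HES6 was higher in HES2 cells in every arm. The mean was 17.9 ± 6.51 CPM in the knockdown libraries and 30.6 ± 9.92 CPM in the shLuc libraries (SD, n = 4 and 2), a log2 fold change of -0.78 with an SE of 0.25 that missed the threshold (limma adjusted p = 0.0645). It passed without H9 shDDX18#3 (-0.93, adjusted p = 0.0277), in a range of 0.0277 to 0.364 over its alternatives. In the authors' deposited table HES6 had a log2 fold change of -0.78 and an FDR of 0.0282. The authors' deposited table gave HES1 0.96 (FDR 0.00114), HES3 -4.80 (FDR 1.59e-12) and NOTCH2 0.69 (FDR 0.0105), and the other 5 members an FDR of 0.105 or more.

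HEY1, a NOTCH target of the related HEY branch, was at 6.76 and 6.68 CPM in HES2 shDDX18#1 and shDDX18#3, against 1.79 CPM in HES2 shLuc. In H9 cells it was near the floor, at 1.23 and 1.62 CPM under these hairpins, against 1.94 CPM under shLuc. The counts were small throughout, with 21, 24 and 8 reads in the HES2 libraries and 3, 5 and 7 reads in the H9 libraries, in the order shDDX18#1, shDDX18#3 and shLuc. Both knockdown libraries of HES2 cells were higher than their shLuc library and both of H9 cells were lower. Over both lines the log2 fold change was 0.59 with an SE of 0.43 and did not pass (limma adjusted p = 0.365). Without HES2 shLuc the fit took the difference from H9 cells alone (-0.28), and without H9 shLuc from HES2 cells alone (1.47).

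Because HES1 and HES6 differed in sign, the number of HES1 reads per HES6 read was also set out by library. It was 2.11 and 1.84 in HES2 shDDX18#1 and shDDX18#3, against 0.577 in HES2 shLuc, and 4.83 and 2.72 in H9 cells with the same hairpins, against 1.05 in H9 shLuc. Each knockdown library had to lie above its own shLuc library, because HES1 was higher and HES6 lower there. All 4 knockdown libraries were also above both shLuc libraries, and how often other gene pairs do this was not tested. The ratio is a description of the same reads and was given no test.

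**Figure D2:**
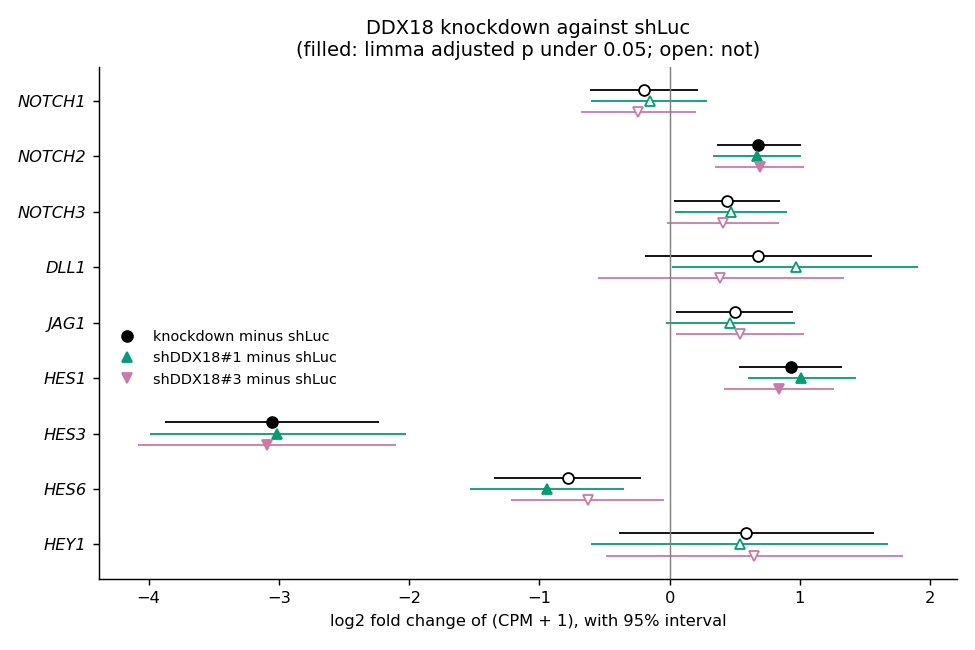
Log2 fold change of (CPM + 1) with its 95% interval (x axis) for each of the 9 genes (y axis), over both hairpins (circles), for shDDX18#1 (upward triangles) and for shDDX18#3 (downward triangles), each minus shLuc. Filled symbols have a limma adjusted p under 0.05: HES1, HES3 and NOTCH2 in all 3 comparisons and HES6 for shDDX18#1, at -0.94.

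NOTCH2 was at 182 and 213 CPM in HES2 shDDX18#1 and shDDX18#3, against 116 CPM in HES2 shLuc. It was at 273 and 240 CPM in H9 cells with these hairpins, against 167 CPM in H9 shLuc. The knockdown libraries lay above both shLuc libraries, with the lowest of them, HES2 shDDX18#1, above the H9 shLuc library. NOTCH2 averaged 227.0 ± 38.6 CPM in the knockdown libraries and 141.8 ± 35.9 CPM in the shLuc libraries (SD, n = 4 and 2). Its log2 fold change was 0.68 with an SE of 0.14 and a 95% interval of 0.36 to 1.01 (limma adjusted p = 0.0196). The call was lost without H9 shLuc (adjusted p = 0.128), HES2 shLuc (0.175), HES2 shDDX18#1 (0.0544) or HES2 shDDX18#3 (0.0623), in a fit with no replicate block (0.087) and in limma without trend (0.0742), in a range of 0.00329 to 0.175 over its alternatives. Reads can also be split with its near-identical copies: NOTCH2NLA stood at 3.58 to 9.19 CPM over the 6 libraries.

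NOTCH3, a receptor best known from vascular mural cells, was at 446 and 393 CPM in HES2 shDDX18#1 and shDDX18#3, against 245 CPM in HES2 shLuc. H9 cells held 293 and 307 CPM with these hairpins, against 279 CPM in shLuc. The groups did not overlap, but the H9 libraries differed little between arms. Its log2 fold change was 0.44 with an SE of 0.18 and did not pass (limma adjusted p = 0.129). The mural cell list, which itself holds NOTCH3, had 2 of 6 tested markers risen, beside 9.60% of all genes tested. Its summed level was 720 to 816 CPM in the knockdown libraries and 312 to 443 CPM in the shLuc libraries. NOTCH3 made up 446 of 811, 393 of 720 and 245 of 312 CPM in HES2 shDDX18#1, shDDX18#3 and shLuc. In H9 cells it made up 293 of 816, 307 of 806 and 279 of 443 CPM in the same order, so most of that difference lay in the other markers. Another marker of the mural cell list is also on the fibroblast and feeder list. The endothelial list had 2 of 6 tested markers risen and the neural progenitor list 1 of 7, with 0 fallen in either. The endothelial sum was 302 and 234 CPM in HES2 shDDX18#1 and shDDX18#3, against 174 CPM in HES2 shLuc. In H9 cells that sum was lower with these hairpins, at 85.4 and 148 CPM against 274 CPM in shLuc. The neural progenitor sums overlapped, at 381 to 836 CPM in the knockdown libraries and 440 to 567 CPM in the shLuc libraries.

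NOTCH1, the receptor most studied in stem and blood cells, was at 183 and 147 CPM in HES2 shDDX18#1 and shDDX18#3, against 153 CPM in HES2 shLuc. H9 cells held 104 and 114 CPM with these hairpins, against 154 CPM in shLuc. Both shLuc libraries had nearly the same level, and the knockdown libraries lay on either side of it. The log2 fold change was -0.20 with a 95% interval of -0.61 to 0.22 (limma adjusted p = 0.483). Without H9 shLuc the fit took the difference from HES2 cells alone (0.10), and without HES2 shLuc from H9 cells alone (-0.49).

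The receptors are long genes of different length, so their levels were also divided by exon length. Of the summed level of NOTCH1, NOTCH2 and NOTCH3 per kilobase, NOTCH1 made up 23.2% and 20.6% in HES2 shDDX18#1 and shDDX18#3, against 30.9% in HES2 shLuc. In H9 cells its share was 17.4% and 19.0% with these hairpins, against 27.2% in shLuc. The NOTCH1 share was thus lower in all 4 knockdown libraries than in both shLuc libraries. In HES2 shDDX18#1, though, NOTCH1 itself was at 183 CPM, against 153 CPM in HES2 shLuc. How often shares of other genes split the arms was not tested. NOTCH2 made up 14.3% and 18.5% in HES2 cells with shDDX18#1 and shDDX18#3, against 14.5% in HES2 shLuc. In H9 cells its share was 28.3% and 24.6%, against 18.3% in H9 shLuc. NOTCH3 held the largest share in every library, 62.5% and 60.9% in HES2 cells and 54.3% and 56.4% in H9 cells with shDDX18#1 and shDDX18#3, against 54.6% in HES2 shLuc and 54.5% in H9 shLuc.

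JAG1, a Jagged ligand that activates NOTCH receptors on neighbouring cells, was at 76.3 and 67.7 CPM in HES2 shDDX18#1 and shDDX18#3, against 39.8 CPM in HES2 shLuc. H9 cells held 76.8 and 96.3 CPM with these hairpins, against 76.4 CPM in shLuc. Each knockdown library was at or above its own shLuc library, with H9 shDDX18#1 level with it, and the groups overlapped. The log2 fold change was 0.50 with an SE of 0.19 (limma adjusted p = 0.115). JAG1 passed without H9 shDDX18#1 (0.62, adjusted p = 0.0427), in a range of 0.0427 to 0.709 over its alternatives. It shares 79 exonic bases with the antisense gene AL050403.2, which stood at 0.894 to 3.22 CPM, and no label says that the reads were counted by strand.

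DLL1, a Delta ligand, was barely detected, with 7 and 5 reads in HES2 shDDX18#1 and shDDX18#3, against 6 reads in HES2 shLuc. H9 cells gave 8 and 5 reads with these hairpins, against 2 reads in shLuc. In CPM, HES2 shDDX18#1 and shDDX18#3 held 2.25 and 1.39 and H9 shDDX18#1 and shDDX18#3 held 3.27 and 1.62, against 1.34 in HES2 shLuc and 0.554 in H9 shLuc. The groups did not overlap, though HES2 shDDX18#3 and HES2 shLuc were nearly level, at 5 and 6 reads, and H9 shLuc was under its floor of 3 reads. The log2 fold change of 0.68 had a 95% interval of -0.19 to 1.55 (limma adjusted p = 0.25) and did not pass.

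Per kilobase of exon, the knockdown libraries had the order NOTCH3 (38.3 ± 7.74 CPM per kb), HES1 (21.8 ± 1.97), NOTCH2 (13.5 ± 2.30), NOTCH1 (13.2 ± 3.45), HES6 (8.76 ± 3.19), JAG1 (8.52 ± 1.30), HEY1 (1.26 ± 0.948) and DLL1 (0.661 ± 0.260; SD, n = 4), with HES3 at 0.494 ± 0.385. In the shLuc libraries the order was NOTCH3 (27.9 ± 2.58 CPM per kb), HES6 (15.0 ± 4.87), NOTCH1 (14.8 ± 0.0847), HES3 (14.6 ± 4.33), HES1 (11.2 ± 1.01), NOTCH2 (8.44 ± 2.13), JAG1 (6.25 ± 2.79), HEY1 (0.577 ± 0.0327) and DLL1 (0.294 ± 0.173; SD, n = 2). NOTCH3 was highest in both arms. HES3 stood beside HES6 and NOTCH1 in shLuc cells, within their spread, and in knockdown cells it was under 3 reads in every library, too few to be ordered against DLL1 and HEY1. HES1 stood below NOTCH1 in shLuc cells and above it in knockdown cells. In knockdown cells, neighbours in the run from NOTCH2 to JAG1 and HEY1 and DLL1 did not differ beyond their SDs. In shLuc cells the same held for neighbours in the run from HES6 to JAG1.

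Levels that separated the arms without overlap were common in the table. All 4 knockdown libraries were above both shLuc libraries for NOTCH2, NOTCH3, DLL1 and HES1, that is for 4 of the 9 members, beside 19.8% of all genes tested. They were below both for HES3, 1 of the 9, beside 20.9% of all genes tested. NOTCH1, JAG1, HES6 and HEY1 overlapped. The split of DLL1 rested on 2 to 8 reads per library. Set against the shLuc library of their own line, all 4 knockdown libraries lay on the same side for 7 members, 3 of 4 for NOTCH1 and 2 of 4 for HEY1. All 4 lay on the same side for 53.7% of all genes tested. A split by line like that of HEY1, with both knockdown libraries of 1 line above their shLuc and both of the other below, was shown by 12.0% of all genes tested.

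**Figure D3:**
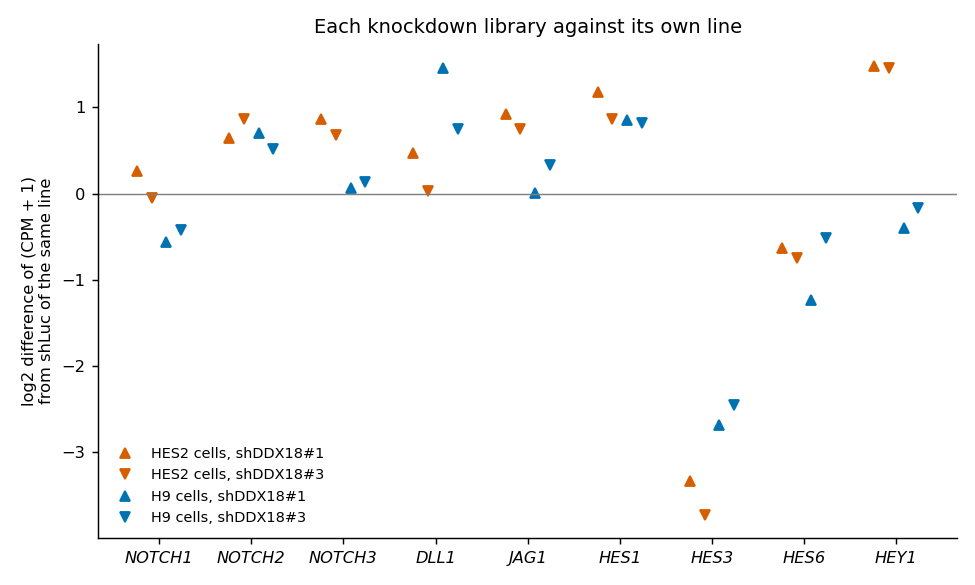
Log2 difference of (CPM + 1) between each knockdown library and the shLuc library of its own line (y axis) for each of the 9 genes (x axis), with orange symbols for HES2 cells, blue for H9 cells, upward triangles for shDDX18#1 and downward triangles for shDDX18#3. All genes but NOTCH1 and HEY1 keep to the same side of 0 in all 4 libraries, as do 53.7% of all genes tested. JAG1 is close to 0 in H9 shDDX18#1 (0.00669) and DLL1 in HES2 shDDX18#3 (0.0311). HEY1 lies above 0 in HES2 cells and under 0 in H9 cells.

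Each hairpin was also set against shLuc alone. With shDDX18#1, NOTCH2 (log2 fold change 0.67, limma adjusted p = 0.0121) and HES1 (1.01, adjusted p = 0.0049) rose, and HES3 (-3.01, adjusted p = 0.00183) and HES6 (-0.94, adjusted p = 0.0281) fell. Those are 2 members in each direction, where 14.4% of all genes tested rose and 13.4% fell. With shDDX18#3, NOTCH2 (0.69, limma adjusted p = 0.0237) and HES1 (0.84, adjusted p = 0.0246) rose and HES3 (-3.09, adjusted p = 0.00419) fell, where 6.96% of all genes tested rose and 3.69% fell. HES6 was at -0.63 with shDDX18#3 and did not pass (adjusted p = 0.163). These comparisons share the shLuc libraries, so their likeness is not independent. HES3 entered both of them through the shLuc libraries alone, the arm where it was high.

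Several of these calls rested on single libraries. For shDDX18#1, leaving out H9 shDDX18#1 lost NOTCH2 (0.55, adjusted p = 0.0963) and HES6 (-0.58, adjusted p = 0.209), and HES6 was also lost without H9 shDDX18#3 (0.062), H9 shLuc (0.0819) or HES2 shDDX18#3 (0.0671). For shDDX18#3, no member was called by limma without H9 shDDX18#3 or without HES2 shDDX18#3, where HES3 stood at -3.57 (adjusted p = 0.0596) and -2.62 (0.15), HES1 at 0.79 (0.306) and 0.89 (0.301), and NOTCH2 at 0.88 (0.152) and 0.50 (0.428). HES1 was also lost without HES2 shLuc (0.75, adjusted p = 0.0554). Over the alternatives the adjusted p ran from 0.019 to 0.306 for HES1, from 0.0137 to 0.428 for NOTCH2 and from 0.00231 to 0.15 for HES3 with shDDX18#3, and from 0.00895 to 0.135 for NOTCH2 and from 0.0209 to 0.217 for HES6 with shDDX18#1.

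The hairpins themselves were not told apart by the 9 genes. In shDDX18#3 minus shDDX18#1, limma called 0 of the 9 members, with 0 at an unadjusted p under 0.05, 0 of 9 by edgeR and 0 of the 6 to which DESeq2 gave an adjusted p, and 0.00% of all genes tested were called. Over all genes 2536 had an unadjusted p under 0.05, and edgeR called 31 and DESeq2 115. Leaving out H9 shLuc gave 815 calls over all genes and leaving out HES2 shLuc 817, none of them a member. The log2 difference was 0.02 for NOTCH2 (95% interval -0.32 to 0.36), -0.17 for HES1 (-0.59 to 0.24), -0.09 for HES3 (-1.08 to 0.90) and 0.31 for HES6 (-0.28 to 0.90). The upper bound for HES6 is close in size to its shDDX18#1 difference from shLuc, and a p that misses the threshold does not show that the hairpins act alike.

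The lines were compared with the arm in the model. In HES2 minus H9 cells, limma called 0 of the 9 members, with 5 at an unadjusted p under 0.05 and 0 by edgeR or DESeq2, where 1.44% of all genes tested were higher and 3.98% lower. HEY1 (log2 difference 1.09, adjusted p = 0.172), HES6 (0.78, adjusted p = 0.0743) and NOTCH1 (0.39, adjusted p = 0.208) leaned towards HES2 cells, and JAG1 (-0.48, adjusted p = 0.165) and NOTCH2 (-0.42, adjusted p = 0.0883) towards H9 cells. The whole table held 963 calls in this comparison, and 2154 without H9 shLuc and 2146 without HES2 shLuc. Both of those fits took the line difference from the same 4 knockdown libraries, so they are not independent. HEY1 was at 1.68, HES6 at 0.84 and NOTCH1 at 0.59 in each of them, and all of these passed the threshold there. In the other alternatives HEY1 did not pass, and its adjusted p reached 0.627. A scaling to the library total moved the median of all genes in this comparison by 0.12 and called HES6 (0.90, adjusted p = 0.047), and the share of calls that were higher in HES2 cells was 45.4% under it and 26.5% in the table's own scaling.

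Whether the knockdown moved the genes differently in the lines was tested as an interaction. Limma called 0 of the 9 members, with 1 at an unadjusted p under 0.05, which was HEY1, and 0 by edgeR or DESeq2. Over all genes tested 0.00% were called, with 788 at an unadjusted p under 0.05, 0 by edgeR and 13 by DESeq2. HEY1 had a log2 difference of 1.75 between its knockdown effect in HES2 cells and that in H9 cells, with a 95% interval of 0.27 to 3.23 (unadjusted p = 0.0267, limma adjusted p = 1).

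Around the 9 genes, 57 of 65 other listed genes of the pathway were in the table, and all 57 were tested. Of them 11 rose, 3 fell and 43 were not called, with a median log2 fold change of 0.13. Among 7 other HES, HEY and feedback genes, 3 rose and 1 fell, and in the cleavage machinery 4 of 9 genes rose and 0 fell. Of all genes tested, 9.60% rose and 6.26% fell with a median of -0.018, so the 3 of 57 that fell are near that background. Limma called no gene among the ligands, the glycosylation enzymes and the proneural factors.

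Feedback and HES-type genes showed the widest differences. NRARP, a NOTCH-induced protein that damps the receptor complex, was at 5.79 and 5.85 CPM in HES2 shDDX18#1 and shDDX18#3, against 42.5 CPM in HES2 shLuc. In H9 cells NRARP was at 2.45 and 4.86 CPM with these hairpins, against 16.1 CPM in shLuc. It fell in the knockdown libraries (log2 fold change -2.30, limma adjusted p = 0.00524), on the opposite side from HES1. BHLHE40, a stress-responsive repressor of the same helix-loop-helix class, was at 69.8 and 60.4 CPM in HES2 shDDX18#1 and shDDX18#3, against 8.27 CPM in HES2 shLuc, and at 197 and 137 CPM in H9 cells with these hairpins, against 27.4 CPM in shLuc. It rose (2.69, limma adjusted p = 0.000998) and was called in all 18 alternatives. HES4 was at 24.1 and 11.1 CPM in HES2 shDDX18#1 and shDDX18#3, against 6.04 CPM in HES2 shLuc, and at 19.2 and 12.3 CPM in H9 cells, against 0.831 CPM in shLuc. The gene HES2 was at 3.86 and 1.95 CPM in HES2 shDDX18#1 and shDDX18#3, against 0.224 CPM in HES2 shLuc, and at 9.80 and 7.13 CPM in H9 cells, against 0.554 CPM in shLuc. Both HES4 (2.24, limma adjusted p = 0.0208) and the gene HES2 (2.11, adjusted p = 0.0126) rose, and in H9 shLuc both were at or under the floor of 3 reads. The gene HES2 was under the floor in HES2 shLuc too and passed the filter on low values through the knockdown libraries alone, so when tested it had to differ. Over its alternatives the fitted value of the gene HES2 ran from 1.07 to 3.86, and that of HES4 from 1.31 to 3.16.

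Among the enzymes that cut NOTCH, FURIN, which cleaves the precursor in the Golgi, was at 188 and 172 CPM in HES2 shDDX18#1 and shDDX18#3, against 97.2 CPM in HES2 shLuc. In H9 cells FURIN was at 170 and 164 CPM with these hairpins, against 106 CPM in shLuc. FURIN (0.76, limma adjusted p = 0.0121), the sheddase ADAM17 (0.82, adjusted p = 0.0425) and the gamma-secretase subunit NCSTN (0.58, adjusted p = 0.0392) were among those that rose. ADAM10 was not called, and the list's median was 0.18. Of the 13 genes for endocytosis and turnover, the ubiquitin ligases MIB2 (0.70, limma adjusted p = 0.0285) and DTX4 (0.95, adjusted p = 0.0127) and the Numb relative NUMBL (0.76, adjusted p = 0.0413) rose and the ligase DTX3 fell (-0.64, adjusted p = 0.048). Their median was -0.01.

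Of 17 genes of the nuclear complex and its corepressors, the Groucho-type corepressors TLE4 (0.94, limma adjusted p = 0.042) and TLE1 (-0.51, adjusted p = 0.0434) moved in opposite directions, and the list's median was 0.11. Groups in which limma called no gene are given by their 2 genes of smallest p. They were DLK1 (1.32, limma adjusted p = 0.0882) and DLL3 of 4 ligands, with a median of 0.81. DLL3, a Delta ligand that does not activate receptors on neighbouring cells, averaged 5.71 ± 1.93 CPM in the knockdown libraries and 12.0 ± 0.236 CPM in the shLuc libraries (SD, n = 4 and 2, limma adjusted p = 0.0527). DLL3 passed in 5 of 18 alternatives, among them edgeR (-1.10, adjusted p = 0.0447) and the fit without H9 shDDX18#3 (-1.14, adjusted p = 0.031), and DLK1 passed without H9 shDDX18#3 (1.63, adjusted p = 0.0304). The next were RFNG (0.69, adjusted p = 0.0502) and POFUT1 (-0.29, adjusted p = 0.225) of 5 glycosylation enzymes with a median of -0.23. RFNG passed in 4 of 18 alternatives, among them DESeq2 (0.74, adjusted p = 0.0454) and the fit without HES2 shDDX18#3 (0.83, adjusted p = 0.0428). Over the alternatives the adjusted p ran from 0.031 to 0.352 for DLL3, from 0.0304 to 0.603 for DLK1 and from 0.0428 to 0.363 for RFNG. ATOH1 (-0.71, limma adjusted p = 0.271) and OLIG2 (0.08, adjusted p = 0.888) were the only proneural factors tested, with a median of -0.32. NOTCH4, DLL4, HES5, HES7, NEUROG1, NEUROG2 and NEUROD1 were not analysed here.

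**Figure D4:**
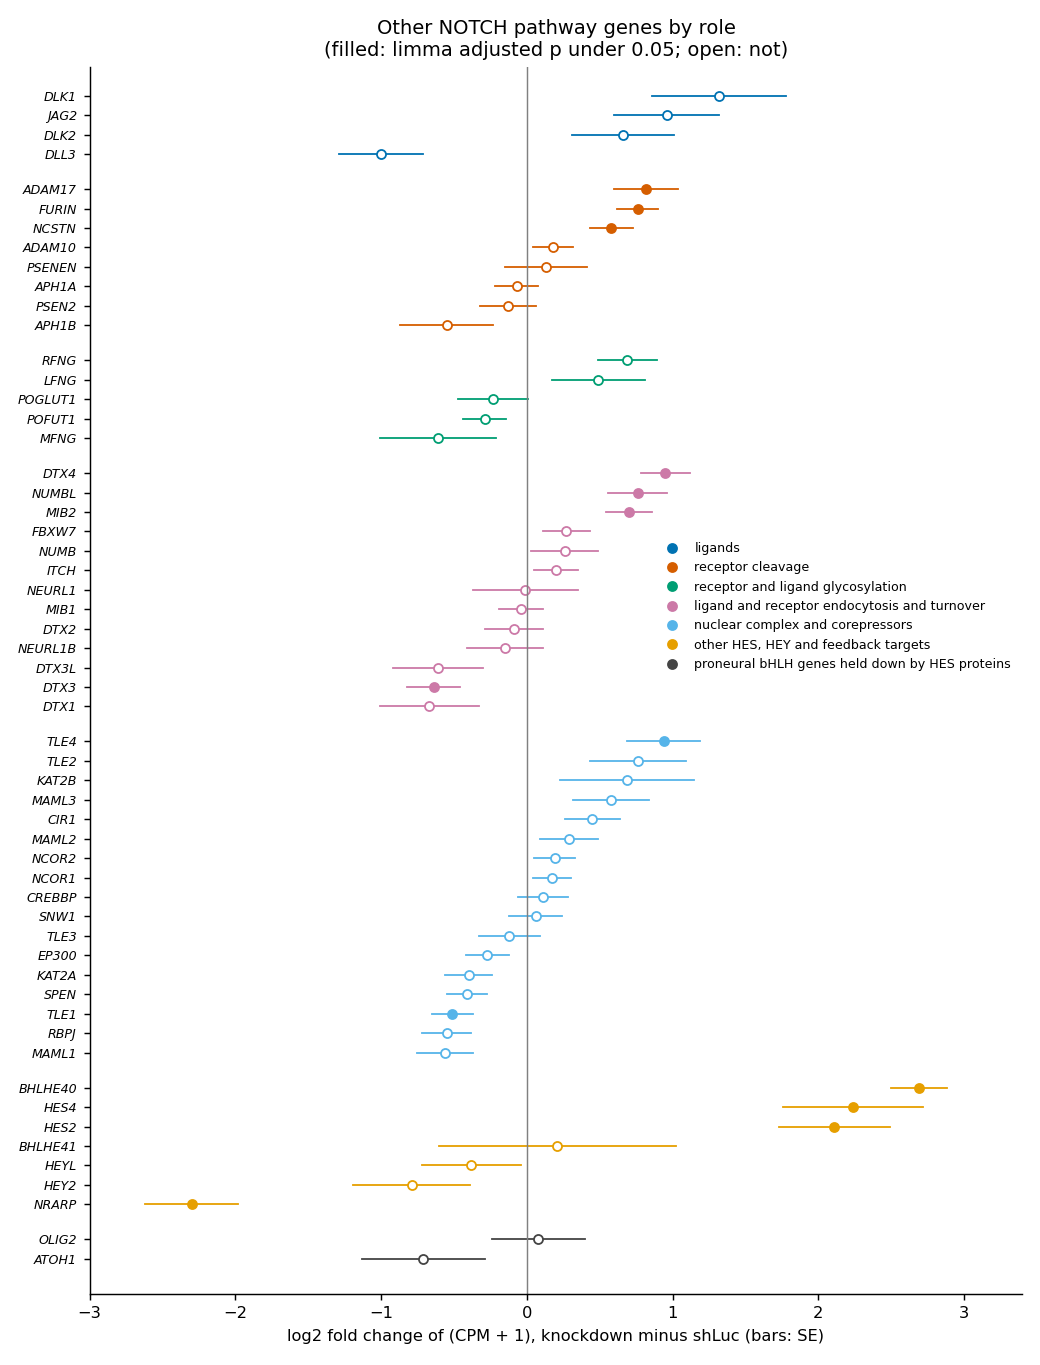
Log2 fold change of (CPM + 1) in knockdown minus shLuc, with SE bars (x axis), for 56 other NOTCH pathway genes (y axis), coloured by role. Filled symbols have a limma adjusted p under 0.05: 10 of those drawn lie above 0, BHLHE40 farthest at 2.69, and 3 lie below 0, NRARP farthest at -2.30.

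Apart from that of BHLHE40, the calls of these 14 genes depended on single libraries. A fit without a shLuc library takes the knockdown difference from the other line alone, against its 1 shLuc library. Without HES2 shLuc 13 of the 14 missed the threshold (limma adjusted p = 0.0518 to 0.391) and only BHLHE40 passed, and without H9 shLuc 11 missed it (0.0617 to 0.319) and BHLHE40, NRARP and TLE4 passed. Without HES2 shDDX18#1 9 of the 14 missed it (0.0615 to 0.144), without HES2 shDDX18#3 8 (0.0503 to 0.124), without H9 shDDX18#1 2 (0.0588 to 0.0591) and without H9 shDDX18#3 2 (0.0507 to 0.06). All 14 kept their direction in each of these fits. HES4 moved to 1.31 without H9 shLuc and TLE4 to 0.40 without HES2 shLuc.

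For each of the 9 genes, the 3 genes with the most similar levels were looked up among 13232 named genes with a mean of at least 3 CPM, by Pearson r of log2(CPM + 1) over the 6 libraries. The 6 points share lines and arms, so a high r is a description and has no p. Closest to HES3 were ITGAE (0.997), ECI1 (0.995) and ITGB3BP (0.995), to HES1 EXOC7 (0.995), KHDRBS3 (0.994) and DIO3 (0.993), and to HES6 PGBD2 (0.995), RNF144A (0.990) and MPHOSPH9 (0.990). Close to NOTCH1 were SMG8 (0.988) and SELENOO (0.984), to NOTCH2 GREM1 (0.994), MAP1A (0.991) and CSMD3 (0.989), and to NOTCH3 ITM2C (0.995), WASHC2C (0.995) and VPS13B (0.994). Closest to DLL1 were SIAH2-AS1 (0.992), OSTC (0.988) and WSB1 (0.987), to JAG1 AK6 (0.993), STS (0.986) and CHST15 (0.984), and to HEY1 ID4 (0.989), MED12 (0.986) and KLHL14 (0.984).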

How the data were processed

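RNA-seq of 6 libraries was analysed from the deposited table of the whole series. Per the submitters' processing notes, the tools named were HTSeq 0.11.2, edgeR 3.26.8, SAMtools 1.9 and Bowtie2 2.3.4.3, and the build was hg19. Per the file headers, the authors deposited TMM values, a depth-normalised signal, beside a log2 fold change, a test score (likelihood ratio), a mean log2 CPM and a p-value with its FDR for each gene; the fit behind those columns is not given in the sources used here. The deposited values were whole multiples of 1 read within 0.001 for 100% of values, so reads were recovered and 1 unit was read as 1 CPM.

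Genes that reached 1 CPM in 2 or more of the libraries were kept (17768 of 17929; symbols came from the table for 15532 genes and from a name table for 600, and 1797 had none). Levels were tested as log2(CPM + 1) with limma 3.58.1 (R 4.3.3), its trend option and the cell line as a block, and p-values were Benjamini-Hochberg adjusted over all genes tested, called under 0.05. Each of the 6 comparisons took its estimate of the spread from all 6 libraries. In HES2 minus H9 the line was the tested term and the arm the block, and the interaction model held line, knockdown and their product. On the recovered reads, edgeR 4.0.16 called 1717 genes risen and 1189 fallen and DESeq2 1.42.0 1805 and 1043, beside 1706 and 1113 by limma. The limma fit of knockdown minus shLuc was tested on simulated data. The simulated lines did not differ, and no gene as low as HES3, HEY1 or DLL1 was changed there, so the simulation does not cover these genes. The pairing comes from the shared cell line. Deviations from the group means correlated at 0.331 and 0.407 between the knockdown libraries and shLuc of HES2 cells. In H9 cells these values were 0.309 and 0.352. The deviations of the 2 shLuc libraries are exact opposites (-1), so the values of the lines are tied and are not separate evidence. The knockdown libraries of HES2 cells correlated with each other at 0.368 and those of H9 cells at 0.0837.

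Means are given with SD, and intervals on reads are exact Poisson intervals that cover counting error only. Exon lengths came from GENCODE 29 (GRCh38), and promoters from RefSeq (GRCh38.p14). The members and the gene lists were chosen with earlier results of these data known. Genes named in the text are the 9 members, the listed pathway genes that were called or, in a group with none called, its 2 with the smallest p, and the 3 genes most like each member; some genes that this rule takes are not reported here. Alternatives were 2 other pseudocounts, 2 other filters, 3 other scalings, limma without trend or with a robust prior, no replicate block, edgeR, DESeq2, and each library left out.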

Additional observations from a re-analysis of the deposited data

Results flagged for a closer look

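HEY1 was set apart because its knockdown difference had opposite signs in the lines. Both knockdown libraries were higher than shLuc in HES2 cells and both were lower than shLuc in H9 cells, a pattern that 12.0% of all genes tested showed in either direction. The interaction was 1.75 on the log2 scale (unadjusted p = 0.0267, limma adjusted p = 1), so it did not pass over all genes tested, and it rested on 3 to 24 reads per library.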

How the results depend on the processing

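All calls rest on 2 shLuc libraries, and levels under 3 reads cannot be ordered. The 3 members called in knockdown minus shLuc were 0 to 4 when single libraries were left out, 0 without either shLuc library and 1 without HES2 shDDX18#1, and 2 without trend or with no replicate block. For shDDX18#1 the 4 calls became 2 in limma without trend and 2 with no replicate block, and were 3 to 4 with libraries left out. They were not always the same calls: without H9 shLuc, 4 rose and 0 fell, where HES3 was not tested and HES6 was lost. For shDDX18#3 the 3 calls became 1 without trend, 0 with no replicate block and 1 by DESeq2, which gave HES3 no adjusted p, and 0 to 4 with libraries left out. The 0 calls in HES2 minus H9 became 1 under library total scaling, and 0 to 4 with libraries left out. The hairpin difference and the interaction stayed at 0. The interaction had no fit with no replicate block and none without a shLuc library, DLL1 was not tested under the filter of 5, and HES3 was not tested without a shLuc library.

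Over all genes, knockdown minus shLuc gave 790 risen and 409 fallen genes with no replicate block, 886 and 342 without trend, 439 and 46 without H9 shLuc and 185 and 7 without HES2 shLuc. Of the 14 other pathway genes called, 5 passed with no replicate block and 4 without trend.

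Directions that turned belonged to differences that were not called. With libraries left out, knockdown minus shLuc ran from -0.49 to 0.10 for NOTCH1, from -0.28 to 1.47 for HEY1 and from -0.02 to 0.18 for OLIG2, which was -0.01 under quantile normalization. The ends for NOTCH1 and HEY1 are the fits without a shLuc library, each of 1 line alone. In shDDX18#3 minus shDDX18#1, NOTCH2 was -0.01 under median-of-ratios scaling and -0.004 by DESeq2, and with libraries left out ran from -0.17 to 0.21, HES3 from -0.56 to 0.39 and HES6 from -0.05 to 0.67. The cause of these changes was not tested.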
